A study of Ovis aries with 6 samples.

Results

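The SLC25 family holds the carriers that move metabolites across the inner mitochondrial membrane, and its messages were measured here in whole skin of sheep. Members were the rows of the gene tables whose name was SLC25A followed by a number and nothing else, a rule that used no measured value. It found 45 of 28394 listed genes, and 41 of them had at least 10 counts in at least 3 sheep and were tested. Poly(A) RNA was sequenced from skin of 3 Super Merino (SM) sheep (128, 30034 and 30126) and 3 Small Tail Han (STH) sheep (XW3, XW5 and XW8). SM is a fine-wool breed and STH a coarse-wool breed. The study's methods describe ewes kept on 1 farm, with skin taken behind the shoulder blade. The labels give an age of 9 months for all 6 animals, while the methods state another age. No sheep was treated, and breed was the only labelled difference. Each sheep gave 1 library, so p-values rest on the spread between 3 animals of a breed. Skin is a mixture of epidermis, wool follicles, glands, dermis, vessels and muscle, and in such bulk samples fewer cells of a type and less RNA per cell cannot be told apart.

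Total counts ran from 28870583 to 44645091 per sheep, and the members together took 0.142 to 0.184% of them. At these depths 3 counts equal 0.0664 to 0.0993 TMM-normalized counts per 1000000 (CPM). Markers of epidermis and of dermal fibroblasts were present in every sheep, with summed CPM of 6036 to 13138 over 4 epidermal genes and of 14386 to 20748 over 5 fibroblast genes.

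As background, SLC25 carriers are made in the cytosol, handed to the outer membrane receptor TOM70 and inserted into the inner membrane by the TIM22 complex. Most exchange a substrate of the matrix for one of the cytosol. Among them are the ADP/ATP exchangers that export the ATP of respiration, the phosphate carrier that feeds ATP synthase, the citrate carrier that exports carbon for lipid synthesis, and the carnitine/acylcarnitine carrier that brings fatty acids in for oxidation. Skin uses both lipid routes, since its sebaceous glands make and secrete large amounts of lipid. The genes UCP1 to UCP3, MTCH1 and MTCH2 belong to the same protein family under other names and were not members by the rule.

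Per kilobase of gene model, a few ADP/ATP and phosphate carriers made up most of the family's messages. Levels of different genes were compared as CPM per kilobase of gene model, averaged over the 6 sheep. Such values depend on model length, which was 708 bases for SLC25A6, 879 for SLC25A4 and 900 for SLC25A5. The median over the tested members was 2402 bases. SLC25A6, an ADP/ATP carrier, stood at 549 CPM per kilobase, which was 42.9% of the family's sum and between 39.7 and 47.1% of it in single sheep. The phosphate carrier SLC25A3 followed at 135 CPM per kilobase, then the ADP/ATP carriers SLC25A5 at 105 and SLC25A4 at 68.5. The glutathione carrier SLC25A39 came next at 66.6 CPM per kilobase and the acylcarnitine carrier SLC25A20 was 6th at 44.4. At the other end SLC25A31, SLC25A45, SLC25A47 and SLC25A48 had between 0 and 8 counts in any sheep and were not tested. SLC25A31 is the testis form of the ADP/ATP carrier, and it had counts of 2, 5 and 0 in SM and of 0, 8 and 7 in STH. Every member had at least 1 count in at least 1 sheep.

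**Figure D1:**
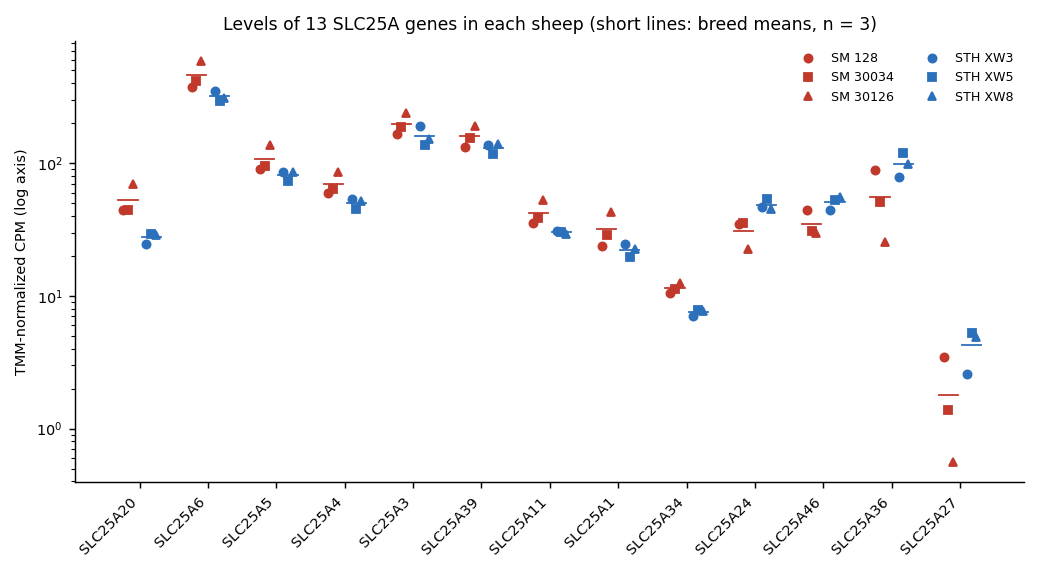
TMM-normalized CPM of 13 members in each sheep on a log axis, with SM in red, STH in blue, a marker shape for each sheep of a breed and short lines for the breed means (n = 3 each). SLC25A6, at 294 to 590 CPM, lies above the other 12, and SLC25A27, at 0.561 to 5.28 CPM, lies lowest.

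The breeds were then compared gene by gene. A positive log2 fold change stands for a higher level in SM, and a negative one for a higher level in STH. With edgeR's quasi-likelihood test and Benjamini-Hochberg adjustment over the 15320 tested genes, 0 members and 0% of all genes passed an adjusted p of 0.05 with a difference over 1.5-fold. At an unadjusted p under 0.05 in that test, 7 members were higher in SM (17.1% of those tested, against 7.21% of all genes) and 3 were higher in STH (7.32% against 10.8%). The 7 were SLC25A20, SLC25A34, SLC25A4, SLC25A11, SLC25A6, SLC25A25 and SLC25A1, and the 3 were SLC25A24, SLC25A46 and SLC25A51. In either direction the members' share was 24.4% and that of all genes 18%. Every SM value exceeded every STH value for 9 members (against 12.3% of all genes), and the reverse held for 3 (against 13.3%). By sign alone 26 of 41 members were higher in SM, while 51.4% of all genes were. The median log2 fold change was 0.098 over the members and 0.018 over all tested genes. The other 31 members had log2 fold changes between -1.26 and 0.40.

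**Figure D2:**
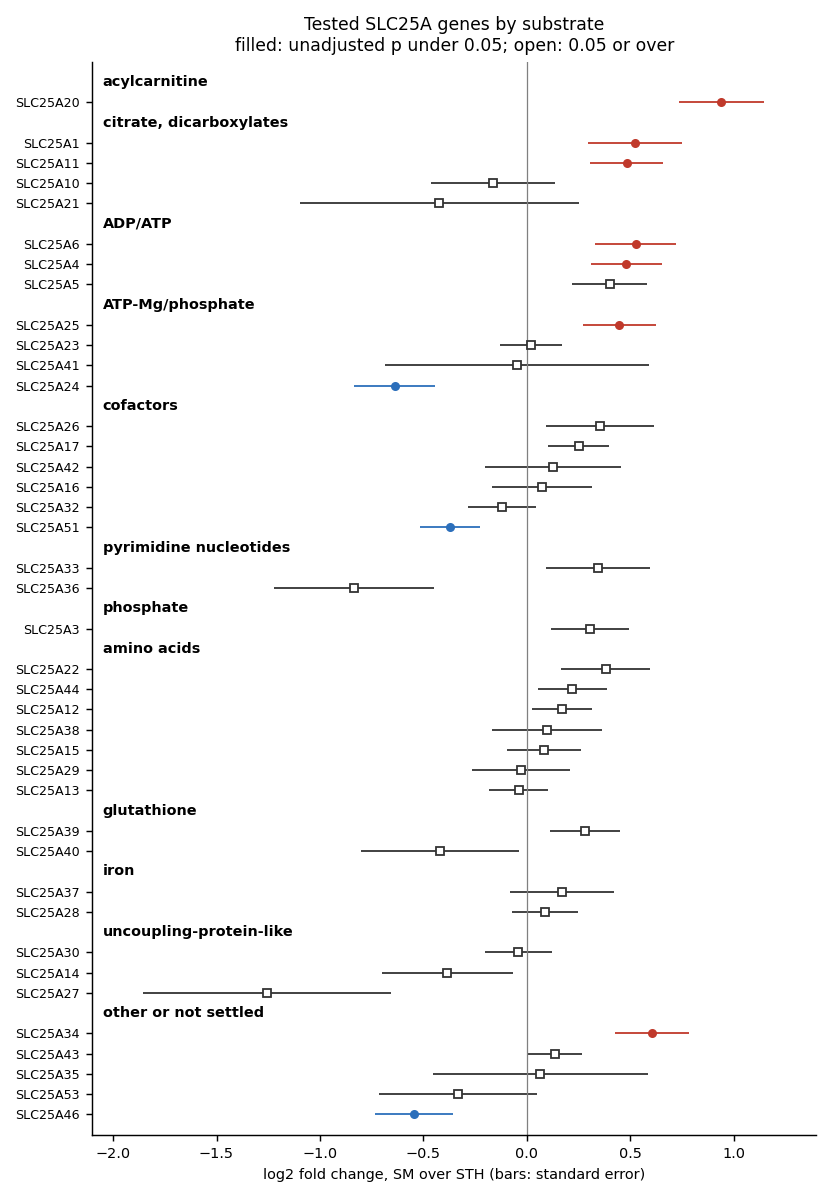
Log2 fold change (SM over STH) of the tested members by substrate, 1 of them not shown, with bars for the standard error, from edgeR's quasi-likelihood fit on 3 SM and 3 STH sheep. Filled symbols have an unadjusted p under 0.05 (red higher in SM, blue higher in STH), and the values run from -1.26 for SLC25A27 to 0.94 for SLC25A20.

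The carnitine/acylcarnitine carrier SLC25A20 showed the largest SM excess of the family. It exchanges acylcarnitines for free carnitine and so carries fatty acids to the matrix. Its gene (identifier 100147786) lies on chromosome 19 from 51004174 to 51042203 on the plus strand of Oar_v4.0. The 3 SM sheep had 44.3 CPM (128), 44.3 CPM (30034) and 69.9 CPM (30126), and the 3 STH sheep had 24.4 CPM (XW3), 29.3 CPM (XW5) and 28.8 CPM (XW8). The groups did not overlap, and sheep 30126 stood above the other SM sheep. Mean levels were 52.8 ± 14.8 CPM in SM and 27.5 ± 2.71 CPM in STH (SD, n = 3 each), a fitted 1.92-fold difference. The log2 fold change was 0.94 (SE 0.21), with an unadjusted p of 0.00155 and an adjusted p of 0.200 by edgeR's quasi-likelihood test. By other tests on the same counts SLC25A20 was the 1 member that passed both thresholds. Its adjusted p was 0.00771 with edgeR's likelihood ratio test, 0.00818 with edgeR's exact test and 0.00566 with DESeq2, where 2.3%, 2.17% and 2.87% of all genes passed. Leaving out sheep 30126 gave a log2 fold change of 0.70, and leaving out sheep 128 gave 1.05. The adjusted p in the quasi-likelihood test was 0.0236 without sheep 128, where 1175 of 15203 genes passed both thresholds. It was 0.234 to 0.582 when any other sheep was left out. The study itself singled out this gene from these libraries, so its place here is not independent evidence.

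The enzymes on either side of the acylcarnitine carrier had log2 fold changes of both signs. Carnitine O-acetyltransferase (CRAT), which joins acetyl groups to carnitine, had 439, 506 and 812 CPM in the SM sheep and 302, 399 and 346 CPM in the STH sheep. No STH sheep reached the SM range for CRAT, with a log2 fold change of 0.75 (SE 0.24, adjusted p = 0.247, edgeR's quasi-likelihood test) that was 0.45 without sheep 30126. CPT1A, which makes long-chain acylcarnitines at the outer membrane, had a log2 fold change of 0.18, and CPT2, which turns them back to acyl-CoA in the matrix, one of 0.15. Among the acyl-CoA synthetases, ACSL3 had a log2 fold change of -0.44 and ACSL5 one of 0.48 (adjusted p = 0.270 and 0.278 in the same test), or -0.26 and 0.28 without sheep 30126. Of 12 carnitine shuttle genes tested, 1 was higher in SM and 1 in STH at an unadjusted p under 0.05, with a median log2 fold change of -0.037. That is 8.33% in each direction, against 7.21% and 10.8% of all genes.

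Enzymes of mitochondrial β-oxidation, the pathway that SLC25A20 supplies, mostly had higher mean levels in SM, 13 of 15 by sign. Of 15 tested genes, 8 (53.3%, against 7.21% of all genes) were higher in SM at an unadjusted p under 0.05, 0 (against 10.8%) were higher in STH, and the median log2 fold change was 0.52 against 0.018 over all genes. The enoyl-CoA isomerase ECI2 had 173, 168 and 238 CPM in the SM sheep and 90.4, 104 and 116 CPM in the STH sheep. Its log2 fold change was 0.90 (SE 0.18, adjusted p = 0.185 by edgeR's quasi-likelihood test). The acyl-CoA dehydrogenase family member ACAD9 followed at 0.78 (SE 0.17, adjusted p = 0.200) and the enoyl-CoA hydratase ECHS1 at 0.64 (SE 0.18, adjusted p = 0.240). ACADL, the long-chain acyl-CoA dehydrogenase, had a log2 fold change of -0.58 and its groups overlapped. With 0 genes past the adjusted threshold in the quasi-likelihood test, 2 of the 15 passed in the likelihood ratio test and 4 with DESeq2. Of all genes, 2.3% and 2.87% passed in those 2 tests. The study had picked ECI2 and ACAD9 from these libraries.

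**Figure D3:**
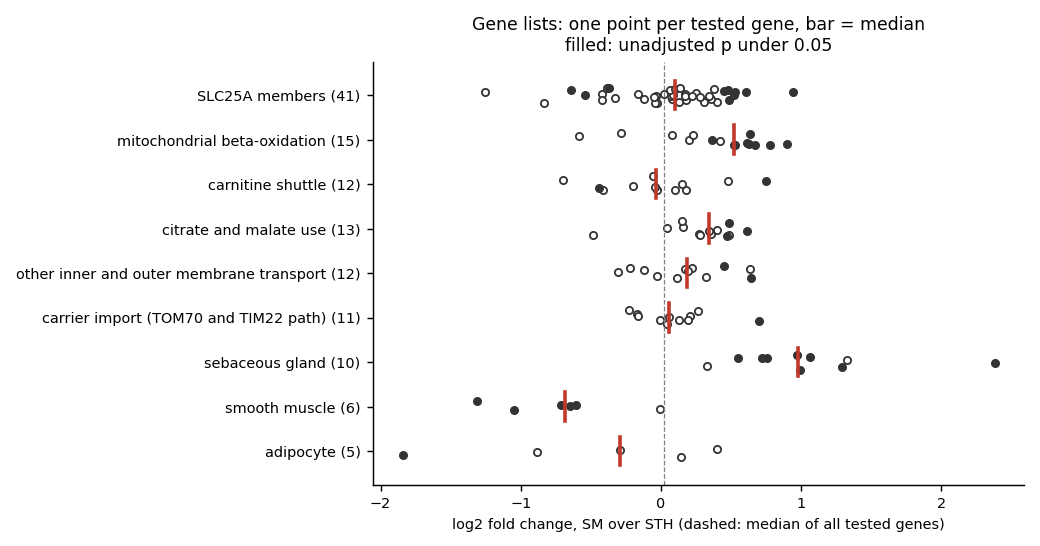
Log2 fold change (SM over STH) of each tested gene in the SLC25A family, 5 lists of mitochondrial genes and 3 lists of cell type markers, with red bars for the medians, a dashed line for the median of all tested genes and filled points for an unadjusted p under 0.05. The median is 0.52 for β-oxidation, 0.098 for the SLC25A members, -0.037 for the carnitine shuttle and 0.98 for sebaceous gland markers.

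Among carriers of citrate, dicarboxylates and oxoacids, SLC25A1 and SLC25A11 had higher means in SM. SLC25A1 (chromosome 17, 71771455 to 71775344), the citrate carrier, had 23.8, 28.6 and 43.1 CPM in the SM sheep and 24.4, 19.7 and 22.4 CPM in the STH sheep. Sheep 128 lay within the STH range, and the log2 fold change of 0.52 (SE 0.23, unadjusted p = 0.0482, adjusted p = 0.276, edgeR's quasi-likelihood test) was 0.25 without sheep 30126. SLC25A11 (chromosome 11, 26032852 to 26035060), the oxoglutarate/malate carrier of the malate-aspartate shuttle, had 35.2, 38.4 and 52.7 CPM in the SM sheep and 30.7, 30.2 and 29.4 CPM in the STH sheep. The groups did not overlap for SLC25A11, and its log2 fold change was 0.48 (SE 0.18, unadjusted p = 0.0235, adjusted p = 0.255, edgeR's quasi-likelihood test), or 0.30 without sheep 30126. The dicarboxylate carrier SLC25A10 had a log2 fold change of -0.16 and overlapping groups. The oxoadipate carrier SLC25A21 was near the limit of detection, at 0.13 to 0.46 CPM.

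A list of 13 genes for citrate and malate use, which also held genes of fatty acid synthesis and transaminases, had a median log2 fold change of 0.34. At an unadjusted p under 0.05, 3 were higher in SM (against 7.21% of all genes) and 0 higher in STH (against 10.8%). Among them were FASN, the fatty acid synthase (0.62), and ACLY, which splits exported citrate to acetyl-CoA (0.49). For both the breeds did not overlap. Without sheep 30126 they were at 0.42 and 0.29. FASN had 768, 712 and 1085 CPM in the SM sheep and 577, 525 and 573 CPM in the STH sheep.

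The ADP/ATP carriers had higher mean levels in SM. SLC25A6 (chromosome X, 609312 to 642091, minus strand) had 372, 414 and 590 CPM in the SM sheep and 350.1, 294 and 311 CPM in the STH sheep. SLC25A4 (chromosome 26, 14203982 to 14207679), the form best known from heart and skeletal muscle, had 59.9, 64.2 and 86.3 CPM in the SM sheep and 53.4, 45.5 and 52.0 CPM in the STH sheep. SLC25A5 (chromosome X, 109124179 to 109126844), typical of dividing cells, had 90.8, 95.6 and 136.6 CPM in the SM sheep and 85.9, 73.3 and 85.6 CPM in the STH sheep. In each of these genes the breeds did not overlap and sheep 30126 was the highest. The log2 fold changes were 0.53 (SE 0.20) for SLC25A6, 0.48 (SE 0.17) for SLC25A4 and 0.40 (SE 0.18) for SLC25A5, with adjusted p of 0.255, 0.254 and 0.285 in edgeR's quasi-likelihood test. Without sheep 30126 they were 0.32, 0.32 and 0.21. SLC25A6 overlaps ASMTL on the same strand, so reads of the pair could be divided between them. ASMTL had 2047 counts summed over the 6 sheep.

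Mean shares of the forms within the ADP/ATP group lay close together in the breeds. SLC25A6 made up 76.4 ± 0.66% of the group's RPKM in SM and 75.2 ± 1.08% in STH (SD, n = 3 each; exact two-sided permutation test, p = 0.3, adjusted p = 0.375 over 10 shares). SLC25A5 made up 14.5, 13.9 and 14.01% in SM and 14.7, 14.8 and 16.02% in STH, and these did not overlap. With 3 sheep against 3 the smallest p such a test can give is 0.1, which SLC25A5 reached (adjusted p = 0.25, exact permutation test). SLC25A4 made up 9.48% in SM and 9.57% in STH. As a share of the whole family per length, the ADP/ATP carriers took 58.7 ± 2.55% in SM and 54.4 ± 1.04% in STH, and the acylcarnitine carrier 4.03 ± 0.304% and 2.79 ± 0.447%. For these 2 groups of substrates the lowest SM value was above the highest STH value. The order was the opposite for the ATP-Mg/phosphate carriers (1.32 ± 0.387% in SM and 2.02 ± 0.182% in STH), the pyrimidine nucleotide carriers (1.30 ± 0.572% and 2.27 ± 0.430%) and the uncoupling-protein-like members (0.526 ± 0.140% and 0.746 ± 0.051%). For the pyrimidine nucleotide carriers the breeds nearly met, at 1.874% in sheep 128 and 1.885% in XW3. Shares of the family sum to a fixed total, so a higher share of 1 group lowers the others. These family shares were not tested, and the length trend described below was not removed from them.

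The phosphate carrier SLC25A3 (chromosome 3, 167593718 to 167599761) had 166, 188 and 240 CPM in the SM sheep and 191, 137 and 153 CPM in the STH sheep. The groups overlapped, with a log2 fold change of 0.31 (SE 0.19, adjusted p = 0.376, edgeR's quasi-likelihood test) that was 0.16 without sheep 30126.

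The ATP-Mg/phosphate carriers, which set the adenine nucleotide pool of the matrix and are mostly regulated by calcium, had differences of opposite sign. SLC25A24 (chromosome 1, 84679006 to 84737662) had 34.8, 35.6 and 22.6 CPM in the SM sheep and 46.4, 53.5 and 44.8 CPM in the STH sheep. Its groups did not overlap, with STH higher, and its log2 fold change was -0.64 (SE 0.20, unadjusted p = 0.0106, adjusted p = 0.247, edgeR's quasi-likelihood test). SLC25A25 (chromosome 3, 8011532 to 8044890) had 18.6, 19.6 and 17.96 CPM in the SM sheep and 15.4, 11.1 and 14.8 CPM in the STH sheep. The breeds did not overlap for SLC25A25, with a log2 fold change of 0.45 (SE 0.18, unadjusted p = 0.0337, adjusted p = 0.260, edgeR's quasi-likelihood test). SLC25A25 overlaps NAIF1 on the opposite strand, and whether counting used strand is not given in the sources used here. SLC25A23 had a log2 fold change of 0.021. SLC25A41 stayed under 1.5 CPM in all sheep.

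As shares of this group's RPKM, SLC25A24 made up 52.5, 52.4 and 42.6% in SM and 61.7, 68.8 and 59.4% in STH. SLC25A25 made up 18.9, 19.4 and 22.9% in SM and 13.8, 9.59 and 13.2% in STH. SLC25A23 made up 27.5 ± 3.66% in SM and 22.03 ± 2.34% in STH (SD, n = 3 each). The breeds did not overlap for any of the 3 shares, each at the smallest possible p of 0.1 in the exact permutation test (adjusted p = 0.25). The shares of 1 group sum to a fixed total, so they are not independent of one another.

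**Figure D4:**
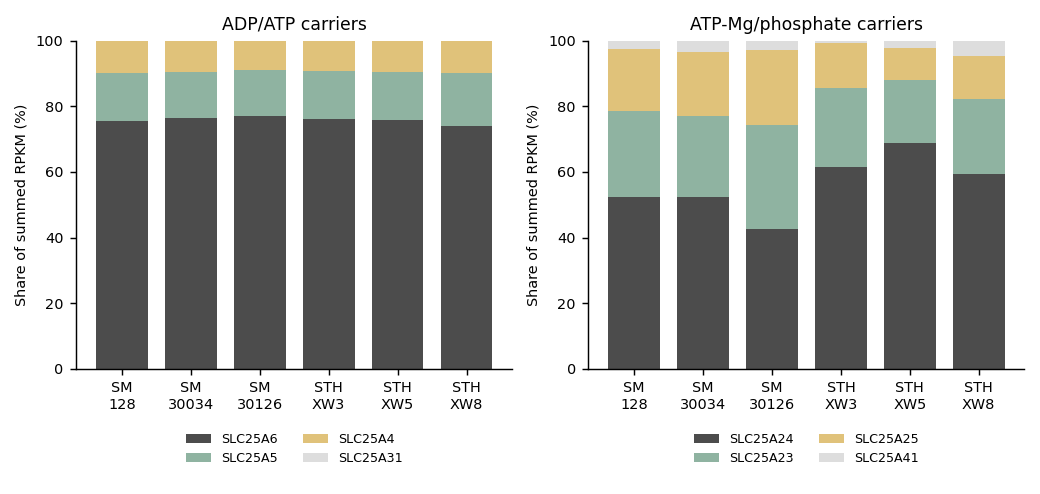
Stacked bars of the share of each paralog in the summed RPKM of its group, in percent, with 1 bar per sheep, for the ADP/ATP carriers (left) and the ATP-Mg/phosphate carriers (right). SLC25A24 takes 42.6 to 52.5% in SM and 59.4 to 68.8% in STH, while SLC25A6 takes 75.6 to 76.9% and 74.01 to 76.00%.

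The pyrimidine nucleotide carriers supply the building blocks of mitochondrial DNA and RNA. SLC25A36 (chromosome 1, 245855104 to 245889260) had 89.1, 51.0 and 25.4 CPM in the SM sheep and 78.1, 118.7 and 98.1 CPM in the STH sheep. The SM sheep were spread widely and sheep 128 lay within the STH range. The log2 fold change of -0.83 (SE 0.39, adjusted p = 0.286, edgeR's quasi-likelihood test) was -1.36 without sheep 128 and -0.47 without sheep 30126. SLC25A33 had a log2 fold change of 0.34 (SE 0.25) with overlapping groups, and its share of the pair was 24.4, 41.1 and 61.3% in SM and 30.4, 16.1 and 20.6% in STH (exact permutation test, p = 0.2, adjusted p = 0.286).

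Of the 7 carriers of cofactors, SLC25A51 was the 1 with an unadjusted p under 0.05. SLC25A51 (chromosome 2, 50613985 to 50632674), which brings NAD into the matrix, had 35.6, 36.5 and 30.0 CPM in the SM sheep and 45.8, 46.2 and 40.1 CPM in the STH sheep. Every STH value exceeded every SM value, with a log2 fold change of -0.37 (SE 0.15, unadjusted p = 0.0321, adjusted p = 0.260, edgeR's quasi-likelihood test). SLC25A17, the peroxisomal member of the family, had a log2 fold change of 0.25 (SE 0.15) and the breeds did not overlap. SLC25A16 and SLC25A42, linked to coenzyme A, had log2 fold changes of 0.074 and 0.13. The S-adenosylmethionine carrier SLC25A26 and the folate carrier SLC25A32 had 0.35 and -0.12, and their groups overlapped.

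Among amino acid carriers no member had an unadjusted p under 0.05 without correction for length. The aspartate/glutamate carriers of the malate-aspartate shuttle, SLC25A12 and SLC25A13, had log2 fold changes of 0.17 (SE 0.15) and -0.039 (SE 0.14). SLC25A12 made up 65.5 ± 2.53% of this pair in SM and 62.2 ± 0.76% in STH (SD, n = 3 each). The ornithine carrier SLC25A15 stood at 0.081, the glutamate carrier SLC25A22 at 0.38, the basic amino acid carrier SLC25A29 at -0.027, the glycine carrier SLC25A38 at 0.098 and the branched-chain amino acid carrier SLC25A44 at 0.22 on the log2 scale.

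Carriers of glutathione and iron had overlapping groups. SLC25A39 (chromosome 11, 43486115 to 43490417), which imports glutathione, had 132, 155 and 190.1 CPM in the SM sheep and 137, 117 and 139 CPM in the STH sheep, a log2 fold change of 0.28 (SE 0.17, adjusted p = 0.366, edgeR's quasi-likelihood test) that was 0.14 without sheep 30126. Its paralog SLC25A40 was at 1.401 to 4.10 CPM, so that SLC25A39 made up 98.6% of the pair's RPKM in SM and 97.8% in STH. The mitoferrins SLC25A28 and SLC25A37, which import iron, had log2 fold changes of 0.088 and 0.17.

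Among uncoupling-protein-like members, SLC25A27 (chromosome 20, 19850189 to 19878431) had the lowest log2 fold change of the family. It had 3.47, 1.37 and 0.561 CPM in the SM sheep and 2.59, 5.28 and 4.90 CPM in the STH sheep. Sheep 128 lay within the STH range, and the log2 fold change of -1.26 (SE 0.60, adjusted p = 0.294, edgeR's quasi-likelihood test) was -2.13 without sheep 128 and -0.81 without sheep 30126. SLC25A14 and SLC25A30 had log2 fold changes of -0.38 and -0.041.

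Members whose substrate is not settled held 2 with an unadjusted p under 0.05. SLC25A34 (chromosome 12, 49811739 to 49817969) had 10.6, 11.2 and 12.4 CPM in the SM sheep and 7.003, 7.82 and 7.68 CPM in the STH sheep. The groups did not overlap, and the log2 fold change was 0.60 (SE 0.18, unadjusted p = 0.00863, adjusted p = 0.247, edgeR's quasi-likelihood test), staying between 0.55 and 0.66 with any 1 sheep left out. SLC25A46 (chromosome 5, 106863306 to 106890506), an outer membrane protein tied to mitochondrial shape, had 44.4, 30.9 and 29.6 CPM in the SM sheep and 44.7, 52.6 and 55.5 CPM in the STH sheep. Its log2 fold change was -0.54 (SE 0.19, unadjusted p = 0.0193, adjusted p = 0.251, edgeR's quasi-likelihood test), and sheep 128 and XW3 nearly met between the groups. SLC25A43 and SLC25A53 had log2 fold changes of 0.14 and -0.33. SLC25A35, named after its values were seen, was uneven within breeds, with 51.9, 12.5 and 70.0 CPM in the SM sheep and 42.0, 29.0 and 57.4 CPM in the STH sheep. Its log2 fold change was 0.066 (SE 0.52). SLC25A35 overlaps RANGRF, which had 4192 counts on the opposite strand summed over the 6 sheep.

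Of 11 tested genes of the TOM70 and TIM22 path, 1 was higher in SM at an unadjusted p under 0.05 (against 7.21% of all genes). None (0) was higher in STH (against 10.8%), and the median was 0.057 on the log2 scale. TIMM10, a chaperone of the intermembrane space, had 24.8, 20.2 and 27.5 CPM in the SM sheep and 12.8, 15.7 and 16.1 CPM in the STH sheep. Every SM value exceeded every STH value for TIMM10, with a log2 fold change of 0.70 (SE 0.18, adjusted p = 0.238, edgeR's quasi-likelihood test). It passed both thresholds with DESeq2 (adjusted p = 0.0351), where 2.87% of all genes passed. With the likelihood ratio test 0 genes of this path did, against 2.3% of all genes. The receptor TOMM70A had a log2 fold change of -0.23 and the outer membrane channel TOMM40 one of 0.27.

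Of 12 tested genes for other transport across the mitochondrial membranes, 2 were higher in SM at an unadjusted p under 0.05 (against 7.21% of all genes). None (0) was higher in STH (against 10.8%), and the median log2 fold change was 0.18. The 2 were subunits of the mitochondrial pyruvate carrier. MPC1 had 125, 129 and 182 CPM in the SM sheep and 110.2, 81.5 and 87.0 CPM in the STH sheep, a log2 fold change of 0.64 (SE 0.19, adjusted p = 0.247, edgeR's quasi-likelihood test). Its partner MPC2 had a log2 fold change of 0.45 (SE 0.19, adjusted p = 0.270, same test), or 0.23 without sheep 30126, and the breeds did not overlap for either subunit. The uncoupling protein UCP2 had one of 0.63 (SE 0.28, adjusted p = 0.281, edgeR's quasi-likelihood test). UCP1 and UCP3 were too low to be tested.

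The breed difference varied with gene length. The RPKM values gave back a whole-number gene model length for each gene, with a median of 2402 bases over the tested members and 3068.5 bases over all tested genes. The models ran from 517 bases (SLC25A37) to 9471 bases (SLC25A27). Of 10 members with a model under 1000 bases, 9 had a length that is a multiple of 3, as a coding sequence without untranslated regions would have. Across the 41 members the Spearman correlation of length with the log2 fold change was -0.44, and across all tested genes it was -0.30 (the genes share the same 6 libraries and are not independent). Under 1500 bases 12 of 14 members were higher in SM, with a median log2 fold change of 0.35 against 0.21 for all genes of that length. At 1500 bases or more 14 of 27 were higher in SM, with medians of 0.021 and -0.030.

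Removing each sheep's trend of level with length lowered the values of the short members. SLC25A20, with a model of 906 bases, then had a log2 fold change of 0.78 (unadjusted p = 0.00154, adjusted p = 0.151, edgeR's quasi-likelihood test). SLC25A6 went to 0.35, SLC25A4 to 0.33, SLC25A11 to 0.34 and SLC25A1 to 0.36, the last with an unadjusted p of 0.0691 in that test. The longer SLC25A34 and SLC25A25, with models of 4515 and 5097 bases, went up to 0.76 and 0.60. SLC25A51, with a model of 5670 bases, went up from -0.37 to -0.19, with an unadjusted p of 0.213 in that test. With the trend removed 7 members were higher in SM at an unadjusted p under 0.05 (against 10.3% of all genes) and 3 in STH (against 9.34%), of which 6 and 2 were among those named before. The 2 others were SLC25A12, at 0.41 (unadjusted p = 0.0242, adjusted p = 0.218, edgeR's quasi-likelihood test), and SLC25A36, at -0.72 (unadjusted p = 0.0452, adjusted p = 0.249, same test).

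**Figure D5:**
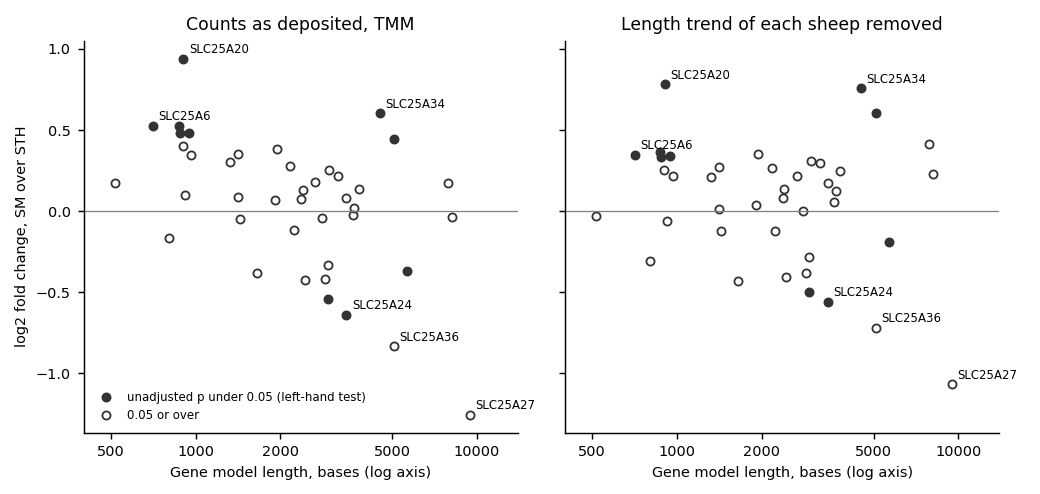
Log2 fold change (SM over STH) of each tested member against its gene model length in bases on a log axis, from counts with TMM (left) and with the length trend of each sheep removed (right), where filled points had an unadjusted p under 0.05 in the left-hand test. The median under 1500 bases is 0.35 on the left and 0.23 on the right, and that at 1500 bases or more is 0.021 and 0.078.

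Sheep 30126 often held the extreme value. It was the highest of the 6 sheep in 18 of 41 members and the lowest in 10, and over all tested genes it was the highest in 33.4% and the lowest in 31.5%. It also had the lowest slope of level on gene length, -0.18 log2 units per doubling of length, while the other 5 sheep had slopes from -0.054 to 0.11. In the study's mapping statistics sheep 30126 had the fewest intronic fragments of the 6 sheep, though not the fewest unique fragments in all. Whether this relates to the length slope was not tested. Sheep XW5, with the slope of 0.11, was the lowest in 13 members. The part of the length trend in the members' values beyond the correction above was not tested.

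Markers of several skin cell types differed in level between the breeds. Of 10 sebaceous gland genes, 8 were higher in SM at an unadjusted p under 0.05 (against 7.21% of all genes), at a median of 0.98 on the log2 scale, and none was at 0. Their summed level was 1484 to 2345 CPM in the SM sheep and 755 to 1200 CPM in the STH sheep. Of 6 smooth muscle genes 5 were higher in STH at that p (against 10.8% of all genes), with sums of 1112 to 1332 CPM in SM and 1761 to 2243 CPM in STH. Of 5 tested adipocyte genes 1 was higher in STH at that p (against 10.8% of all genes) and 0 in SM. By sign alone 3 were higher in STH and 2 in SM. Summed adipocyte markers were at 36.96 to 71.9 CPM in SM and 143 to 181 CPM in STH, mostly from FABP4, while LEP was close to 0. Skeletal muscle markers were low in both breeds, with overlapping sums of 25.4 to 39.3 and 34.2 to 41.4 CPM, and TNNC2 and MB were near 0. The 2 tested ones were higher in STH by sign, 1 of them at that p (against 10.8% of all genes). This was ACTA1, with a log2 fold change of -2.18 and groups that did not overlap. It passed both thresholds with the likelihood ratio test, the exact test and DESeq2, where 2.3%, 2.17% and 2.87% of all genes passed. Of 4 epidermal genes 3 (KRT1, KRT10 and IVL) were higher in STH at that p (against 10.8% of all genes). These 3 passed both thresholds with the likelihood ratio test and DESeq2, where 2.3% and 2.87% of all genes passed. The median was -1.12 over the 4, although the sums, carried by KRT5, overlapped. Of 3 endothelial genes 2 (VWF and CDH5) were higher in SM at that p (against 7.21% of all genes), with a median of 0.66 and overlapping sums. At that p 2 of 5 wool follicle genes were higher in SM and 1 in STH. Of 5 fibroblast genes 1 was higher in STH, and of 3 immune genes 1 in SM. The sums of these lists overlapped too. Of all genes, 7.21% were higher in SM and 10.8% in STH at that p. The study had reported many of these markers from the same libraries, so the marker counts are not independent evidence. For sebaceous gland these were AWAT1, DGAT2L6, ELOVL3, FA2H and PLIN2. For smooth muscle they were MYH11, DES and ACTG2, and for epidermis KRT1, KRT10 and IVL. FABP4, ACTA1, KRT36 and KRT79 were reported as well. Sheep 30126 had the highest sebaceous sum as well as the highest SLC25A20, SLC25A1 and SLC25A6 levels, and was the highest sheep in 33.4% of all tested genes. Among the STH sheep XW5 had the highest sebaceous sum (1200 CPM) and the highest SLC25A20 (29.3 CPM). Its SLC25A1 (19.7 CPM) and SLC25A6 (294 CPM) were the lowest of the 6 sheep. The part of cell composition in the differences of SLC25A20, the citrate carrier and the ADP/ATP carriers was not tested.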

How the data were processed

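Per the labels and the study's methods, poly(A) libraries were made with an Illumina TruSeq kit, reads were checked with FastQC and mapped to Oar_v4.0 in CLC Genomics Workbench, and the authors deposited gene tables with total counts, RPKM, TPM and a CPM column (treated as a score, and not used like TPM). The RPKM values deposited were used for gene model lengths and paralog shares. Total counts as deposited were fitted in R 4.3.3 with edgeR 4.0.16 (TMM, at least 10 counts in at least 3 sheep, glmQLFTest, breed as the only term, Benjamini-Hochberg over all 15320 genes). Calls required a difference over 1.5-fold and an adjusted p under 0.05. CPM in the text are TMM-normalized. Floors of 3 counts cover counting error only. Standard errors were the absolute log2 fold change divided by the square root of the quasi-likelihood F statistic, and so include the spread between sheep.

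Alternatives were edgeR's likelihood ratio and exact tests, DESeq2 1.42.0, RLE and upper quartile scaling, no count filter (1 count in any sheep), a filter of 1 CPM in 3 sheep, removal of each sheep's loess trend (span 0.5) on length, limma 3.58.1 on log2(RPKM + 0.1), and each sheep left out. Of the members, 44 of 45 identifiers were in the RefSeq gene table, 1 of them under another symbol (SLC25A37). SLC25A2, SLC25A18 and SLC25A52 were not analysed here.

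The members, gene lists and cell type markers were chosen with earlier results of these data known. Values in every sheep were given for SLC25A20, SLC25A1, SLC25A4 to SLC25A6, the 5 highest members by mean RPKM, the 6 smallest p and the 4 largest changes in each direction; from each gene list the 3 smallest p were named. Other genes were named to describe a group, after their values were seen. Some genes of these lists are not reported here.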

Additional observations from a re-analysis of the deposited data

How the results depend on the processing

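No paired analysis was possible because the labels carry no replicate numbers that sheep of the breeds share. With edgeR's quasi-likelihood test 0 of all genes passed both thresholds, and 2762 had an unadjusted p under 0.05. The likelihood ratio test gave 352 genes, the exact test 332, DESeq2 439, no count filter 2, the length trend removed 8 and limma on log2 RPKM 2, and with 1 sheep left out the count ran from 0 to 1175, the highest without sheep 128. Members past both thresholds numbered 1 in the likelihood ratio, exact and DESeq2 tests and 0 to 4 with 1 sheep left out. Without sheep 128, where 1175 of 15203 genes passed, the 4 were SLC25A20, SLC25A27, SLC25A36 and SLC25A46. Members at an unadjusted p under 0.05 and higher in STH numbered 5 in place of 3 in the likelihood ratio, exact and DESeq2 tests, and 1 to 5 with 1 sheep left out (1 without 30126 or XW5, 5 without 128). Over all 15320 genes this count was 1839, 1800 and 1903 in those 3 tests, in place of 1658. It was 988 of 15199 genes without 30126, 635 of 15097 without XW5 and 2677 of 15203 without 128. Members higher in SM at that p numbered 2 to 8, the lowest without XW5 and the highest without 128. All genes higher in SM then numbered 473 and 1932. The members' median log2 fold change was 0.065 to 0.17 with 1 sheep left out. Upper quartile scaling split all genes at that p into 1437 higher in SM and 1402 higher in STH, against 1104 and 1658, and the length correction into 1575 and 1431. The cause of these differences was not tested.

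Members with small differences turned direction. With the length trend removed SLC25A13 was at 0.23, SLC25A29 at 0.057, SLC25A37 at -0.033 and SLC25A38 at -0.061. With limma on RPKM SLC25A13 was at 0.0049, SLC25A30 at 0.0050, SLC25A35 at -0.16 and SLC25A41 at 0.17, and with upper quartile scaling SLC25A29 was at 0.0061. With 1 sheep left out the log2 fold change ran from -0.31 to 0.15 for SLC25A10, -0.062 to 0.19 for SLC25A15, -0.18 to 0.30 for SLC25A16, -0.050 to 0.072 for SLC25A23, -0.032 to 0.21 for SLC25A28, -0.36 to 0.14 for SLC25A29, -0.12 to 0.021 for SLC25A30, -0.40 to 0.50 for SLC25A35, -0.13 to 0.29 for SLC25A38, -0.48 to 0.65 for SLC25A41 and -0.0098 to 0.40 for SLC25A42. The share of SLC25A4 (SM minus STH) ran from -0.26 to 0.12 percentage points and that of SLC25A28 from -3.91 to 0.90. With fewer than 10 counts in 3 sheep, 4 members were too shallow to compare.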
